A study of Procambarus virginalis and Procambarus fallax with 9 samples.

Results

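The genes described here are transcripts that were abundant, but not dominant, in the hepatopancreas of the marbled crayfish Procambarus virginalis and nearly absent from its abdominal musculature. A gene model was a member when its mean level over the 3 P. virginalis hepatopancreas libraries was at least 100 and below 1000 TPM (a relative transcript level scaled for transcript length and library size), when the highest of these libraries was less than 10 times the lowest, and when its mean over the 3 P. virginalis muscle libraries was at most 1% of the hepatopancreas mean. Of 21773 gene models, 383 had a hepatopancreas mean in this range, 364 of these also kept the limit on spread, and 122 were members. The hepatopancreas values and the P. virginalis muscle values therefore were the measured values that the members were chosen by, and they are given as a description, with no test. "Restricted" refers to these tissues alone, since no other organ is in the data.

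The hepatopancreas is the main digestive gland of decapod crustaceans. It makes and secretes digestive enzymes, takes up nutrients, stores lipid and glycogen, and takes part in detoxification and in the handling of metals. Abdominal musculature is the striated muscle of the tail, whose transcripts are led by contractile proteins and the enzymes of energy supply. The files give each gene by a gene model identifier and do not pair it with a gene name, so neither the roles of the members nor the tissue labels could be read from known marker genes, and members are described by their levels, their gene models and their behaviour across animals.

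Both tissues were sequenced from P. virginalis animals 2, 6 and 7, whereas P. fallax animals 1, 3 and 4 gave abdominal musculature only. P. virginalis is a parthenogenetic, all-female, clonal species, and its animals were laboratory-bred crayfish of the Heidelberg strain, so that its 3 animals share 1 genotype. P. fallax is the sexually reproducing closest relative, and its animals were females obtained from an aquarium supplier. No group had received a treatment, the animals were adults whose exact ages were not given in the sources used here, and reads of both species were assigned to gene models of P. virginalis. P. fallax muscle is thus the only group whose values took no part in choosing the members. In whole tissue, fewer cells of a type and less RNA per cell cannot be told apart.

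Hepatopancreas libraries held 12947418 to 67369392 expected counts (read counts as estimated per gene, which need not be whole), P. virginalis muscle libraries 6001494 to 18661368 and P. fallax muscle libraries 9109577 to 11942816. The deepest library was the hepatopancreas of animal 2. Reads of P. virginalis animals 2 and 6 were shorter than those of animal 7 and of the P. fallax animals. P. fallax animal 3 stood apart among the 6 muscle libraries in the hepatopancreas-restricted genes, both in the members and in 49 more abundant genes with the same restriction (hepatopancreas mean of at least 1000 TPM). Those 49 dominant genes summed to 1521 TPM in animal 3, against 37.6 and 87.0 TPM in P. fallax animals 1 and 4 and 43.4 to 53.5 TPM in P. virginalis muscle. Values that rest on animal 3 are therefore given with and without it.

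Near the limits of the rule the genes changed gradually. The members closest to the muscle limit stood at 0.998% and 0.952% of the hepatopancreas mean, and the nearest genes outside it at 1.04% and 1.12%. The highest hepatopancreas mean below the range was 99.3 TPM and the lowest above it 1016 TPM. The largest ratio of highest to lowest library among members was 9.94, and the smallest ratio that exceeded the limit was 12.4. The limit on spread alone removed 12 genes.

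Most members lay in the lower part of the range of hepatopancreas levels. Between 100 and 200 TPM there were 57 members, between 200 and 500 TPM 40, and between 500 and 1000 TPM 25, with a median of 215 TPM. The member with the highest mean, maker-scaffold33974-snap-gene-0.1, had 1728, 482 and 764 TPM in animals 2, 6 and 7 (991 ± 653 TPM, SD, n = 3). Its high mean came from animal 2, which had more than either other animal. The second, maker-scaffold196499-snap-gene-0.8, had 1357, 824 and 683 TPM (955 ± 355 TPM, SD, n = 3), again led by animal 2. At the lower end, maker-scaffold6728-snap-gene-0.42 had 81.2, 83.0 and 138 TPM (101 ± 32.2 TPM, SD, n = 3). Here animal 7 was highest. The lowest mean belonged to evm-scaffold326065-processed-gene-0.1, with 168, 108 and 24.5 TPM (100.2 ± 72.2 TPM, SD, n = 3), which was lowest in animal 7. All but 1 of the members had at least 100 expected counts in every hepatopancreas library, and counts ranged from 82 to 263444.

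**Figure D1:**
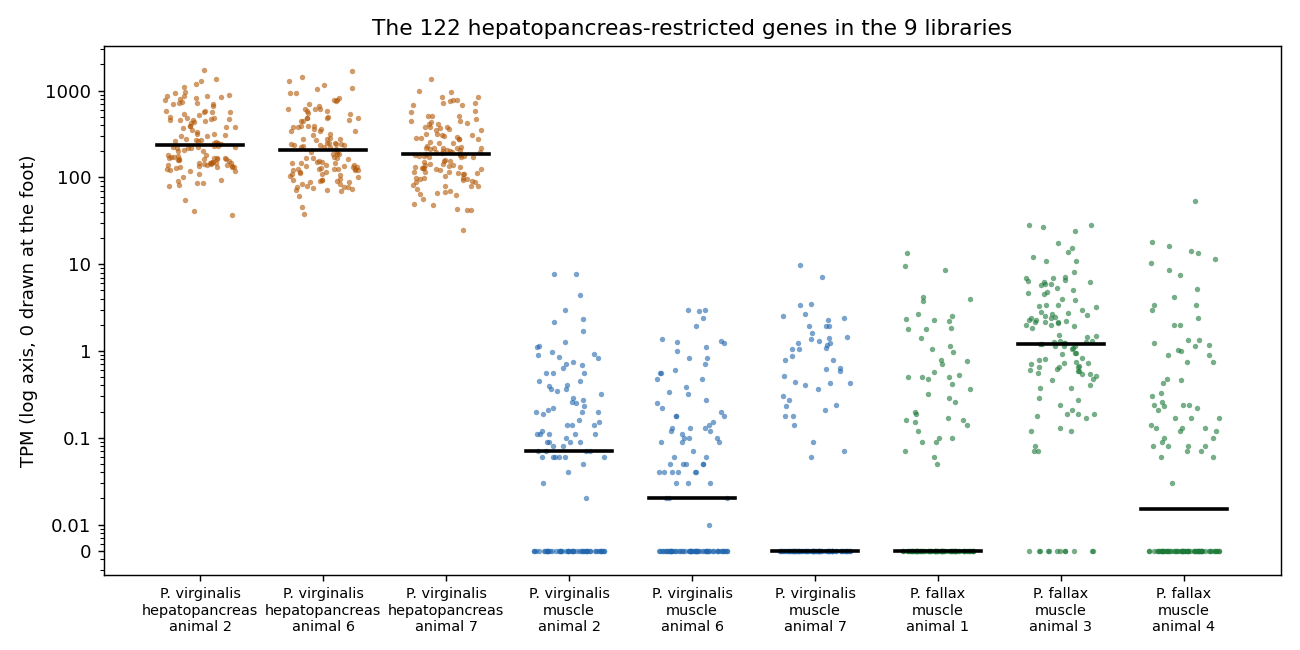
TPM of the 122 members in each of the 9 libraries on a log axis, with 1 point per gene, a black line at each library's median and genes at 0 drawn at the foot. Hepatopancreas medians lie well above every muscle value, the highest of which is 53.3 TPM, and P. fallax animal 3 has the highest muscle median (1.21 TPM).

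Together the members made up a small share of hepatopancreas RNA. They summed to 44327, 38809 and 32681 TPM in animals 2, 6 and 7, that is 4.43%, 3.88% and 3.27% of all TPM. The 49 dominant restricted genes took 48.1%, 36.3% and 32.3% in the same libraries. Both groups of genes were thus highest in animal 2 and lowest in animal 7 on this scale. Scaled by TMM (trimmed mean of M values, a normalization that does not rest on the total), the members' summed depth-scaled counts (CPM) were 25750, 32275 and 18989. This placed animal 6 first and left animal 7 last. The dominant genes summed to 207020, 203138 and 146426 on the same scale, so for them animal 2 stayed first.

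Within the limit on spread, individual members varied between the 3 clonal animals by about as much as other genes of the same abundance. Both lists had been cut by that limit, which alone kept 12 genes out of the members. The comparison therefore does not cover the most variable genes. The coefficient of variation over the 3 hepatopancreas libraries had a median of 36.9% (quartiles 21.7% and 58.4%), against 35.4% (19.5% and 49.1%) for the 242 genes that met the level and spread limits but were above the muscle limit. The ratio of highest to lowest animal had a median of 2.12 in members and 2.05 in those genes. Below a ratio of 2 lay 60 members, and 14 reached 5 or more. The median coefficient of variation was 36.3% for members at 100 to 200 TPM, 40.3% at 200 to 500 TPM and 42.2% at 500 to 1000 TPM. The steadiest member, evm-scaffold10896-processed-gene-0.0, had 216, 198 and 221 TPM in animals 2, 6 and 7, a coefficient of variation of 5.68%. The most variable, maker-scaffold13976-snap-gene-2.3, had 484, 89.0 and 48.7 TPM, a coefficient of variation of 116%. Its level in animal 2 exceeded both other animals, and it was at 0 in all 6 muscle libraries.

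By TPM, animal 2 most often had the highest level of a member, whereas animal 6 most often had that of the other genes of the same abundance. On this scale 65 members (53.3%) were highest in animal 2, 34 (27.9%) in animal 6 and 23 (18.9%) in animal 7. Of the 242 other genes, 27.3% were highest in animal 2, 37.2% in animal 6 and 35.5% in animal 7. The lowest level was in animal 7 for 44.3% of members and in animal 2 for 59.5% of the other genes. More than 2 times both other animals were reached by 17 members in animal 2, 9 in animal 6 and 2 in animal 7. Which animal led depended on the scaling: on TMM-scaled RPKM (read counts scaled by gene length and by TMM library size), a scale chosen after the data were seen, animal 6 led in 49.2% of members, animal 2 in 36.1% and animal 7 in 14.8%. On that scale animal 6 also led in 57.9% of the other genes, animal 2 in 16.5% and animal 7 in 25.6%. The same animal thus led both lists by TMM, while the share of genes led by animal 2 was larger in members than in the other genes on both scales. The share of counts taken by the 10 most abundant genes of a library moved in the opposite order, with 39.8% in animal 2, 46.0% in animal 6 and 57.5% in animal 7, and its part in these shares was not tested.

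**Figure D2:**
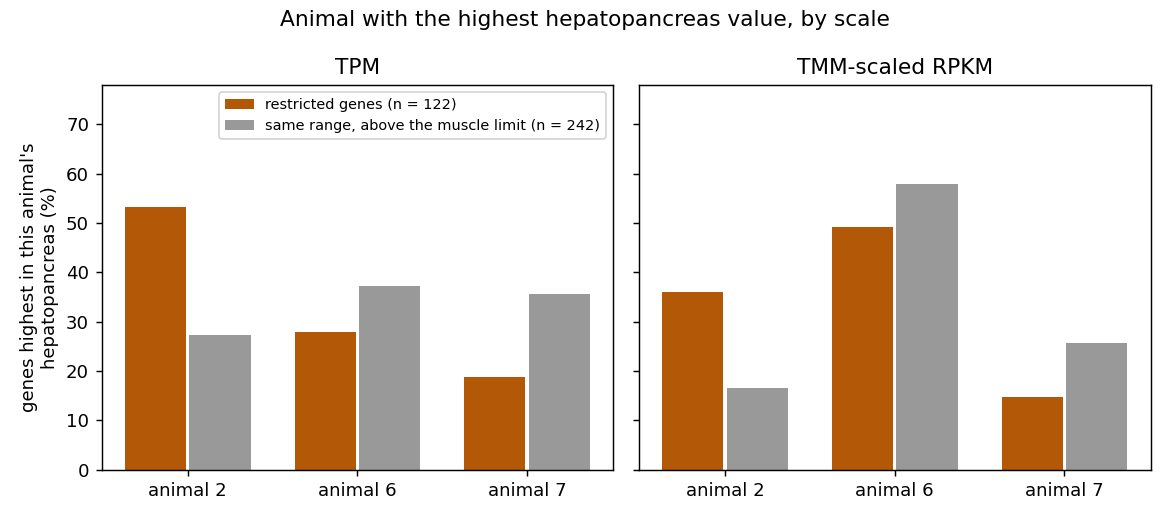
Percent of genes whose highest hepatopancreas level was in P. virginalis animal 2, 6 or 7, for the 122 members (brown) and the 242 other genes of the same range (grey), by TPM on the left and by TMM-scaled RPKM on the right. Animal 2 leads 53.3% of members and 27.3% of the other genes by TPM, and 36.1% and 16.5% on the TMM scale.

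Members and other genes had gene models of similar length but of different prefixes. Transcript length had a median of 882 nt in members (243 to 3660 nt), 900 nt in the 242 other genes and 1011 nt over the 7469 genes with a hepatopancreas mean of at least 1 TPM. Identifiers beginning with maker made up 68.0% of the members, against 40.9% of the 242 other genes and 47.6% of the genes expressed in hepatopancreas. Identifiers beginning with evm made up 11.5% of the members and 38.8% of the other genes. They made up 18.6% of the genes expressed in hepatopancreas and 9.68% of all gene models, so the other genes lay further from these shares than the members. What the prefixes mean for the models was not stated in the sources used here. More than 1 transcript was listed for 4 members. Expected counts that were not whole occurred in at least 1 hepatopancreas library for 45 members (36.9%), against 24.4% of the other genes. The share was 35.1% over the 7469 genes expressed in hepatopancreas and 32.3% over all gene models, so the members lay near the background. For these 45 members RSEM had divided reads with other models and their levels are less certain, the steadiest member named above among them.

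Some members shared a scaffold of the assembly. On 10 scaffolds there were 2 members each, so that 20 members (16.4%) shared a scaffold with another, against 23 (9.50%) of the 242 other genes. Among the 7469 genes expressed in hepatopancreas the share was 49.7%. These lists differ in length, which bears on the share, so the shares are given as description only. The higher of the pair had 1.21 to 2.13 times the hepatopancreas mean of the lower, with a median of 1.55. In 5 of the 10 pairs both members were highest in the same animal. Scaffold lengths and gene order were not used here, so whether the members of a pair were neighbours was not examined. Near-identical models that share reads could not be told apart from separate genes.

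In P. virginalis muscle, whose mean had been limited by the rule, many members were detected at trace levels. Of the 122 members, 73, 64 and 45 were above 0 in animals 2, 6 and 7, and 31 were at 0 in all 3. Their summed level was 49.8, 30.4 and 62.2 TPM (47.4 ± 16.0 TPM, SD, n = 3), and no member exceeded 9.67 TPM in any of these libraries. The median member stood at 0.0241%, 0.00537% and 0% of its hepatopancreas mean. A member at 0 may have been present below detection, as a count of 0 allows up to 3 counts in a library, and these limits cover counting error only.

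In P. fallax muscle, which the rule did not use, 104 of the 122 members (85.2%) also had a mean of at most 1% of the P. virginalis hepatopancreas mean. The background was 979 of 7469 genes expressed in hepatopancreas (13.1%). Of the 242 other genes of the same abundance, 4 (1.65%) were that low, and of the 49 dominant genes 48 were. The median P. fallax muscle level was 0.242% of the hepatopancreas mean in members, 40.5% in the other genes and 0.0924% in the dominant genes. In the muscle of the related species most members were thus below the limit, and most of the others above it. The hepatopancreas mean that divides each value is the one the members were chosen by. The 242 other genes were those above the same limit in P. virginalis muscle. The background takes in genes from 1 TPM, below the range of the rule. These shares are therefore given as description only. The comparison crosses species, because P. fallax hepatopancreas was not analysed here.

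The trace levels in P. fallax muscle came largely from animal 3. In animals 1, 3 and 4, 47, 110 and 61 members were above 0, the summed levels were 74.2, 393 and 196 TPM (221 ± 161 TPM, SD, n = 3), and the median member stood at 0%, 0.580% and 0.00543% of its hepatopancreas mean. Animal 3 was the highest of the 3 P. fallax libraries in 93 members and the highest of all 6 muscle libraries in 84. Within P. fallax, 47 members were detected in animal 3 alone, with a median of 10 expected counts. Over at least 1 P. fallax library 114 members were detected, and over animals 1 and 4 alone 67. Across the members, the level in animal 3 followed the hepatopancreas mean more closely (Spearman's rho of 0.496 over 122 genes) than in animals 1 and 4 (0.0729 and 0.0700) or in P. virginalis muscle (0.0306 to 0.352). Members tied at 0 numbered 12 in animal 3, 75 and 61 in animals 1 and 4, and 49 to 77 in P. virginalis muscle. Detection and rank order thus cannot be told apart in these values. The genes share libraries and are not independent replicates. The dominant genes moved with the members: all 49 were above 0 in animal 3, with a median of 0.264% of their hepatopancreas means, whereas 26 and 33 were above 0 in animals 1 and 4. The part that the higher level of the dominant genes in animal 3 has in the members' levels was not tested. Without animal 3, 110 members stood at or below 1% and the median was 0.00981%.

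**Figure D3:**
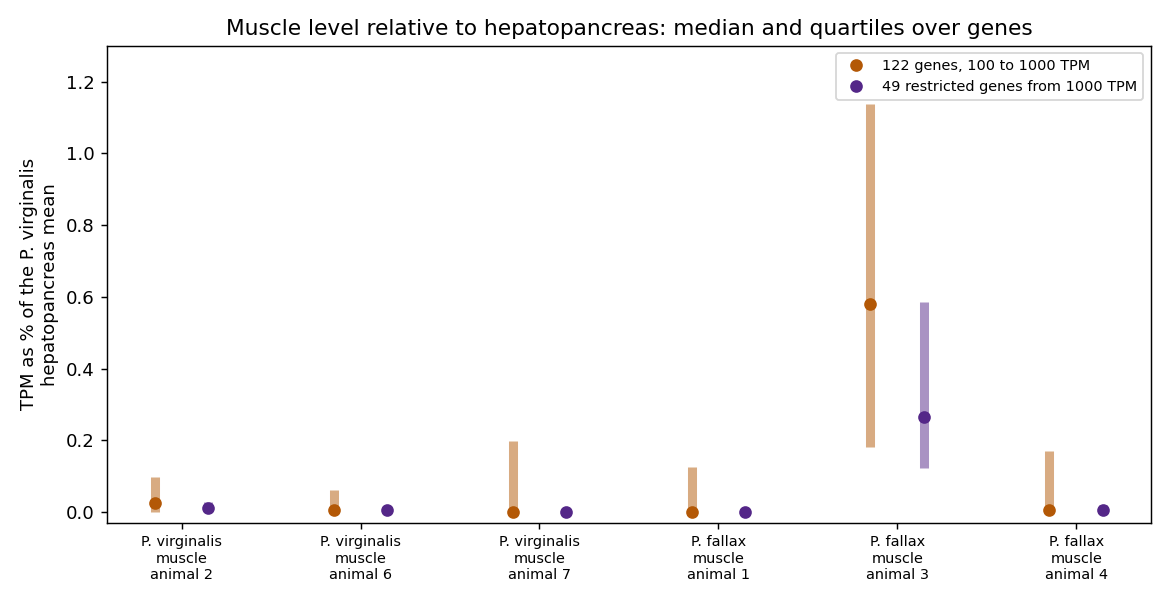
TPM in each muscle library as a percent of the gene's P. virginalis hepatopancreas mean, with points for the median over genes and bars for the quartiles, for the 122 members (brown) and the 49 dominant restricted genes (purple). P. fallax animal 3 stands above the other 5 libraries, with medians of 0.580% and 0.264%.

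A pair of members showed the difference between P. fallax animals in full; they were chosen after their values were seen, as the members above 20 TPM in animal 3 and at 0 in animals 1 and 4. The first, maker-scaffold279823-snap-gene-0.5, had 0, 27.98 and 0 TPM in P. fallax animals 1, 3 and 4 and 565, 132 and 471 TPM in hepatopancreas. The 159 expected counts in animal 3 had no counterpart in the other P. fallax libraries. The second, snap_masked-scaffold9906-processed-gene-1.4, had 0, 26.9 and 0 TPM in P. fallax muscle, with 256 expected counts in animal 3, and 746, 607 and 505 TPM in hepatopancreas. In P. virginalis muscle neither exceeded 0.36 TPM.

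At the other extreme, 8 members were at 0 in all 6 muscle libraries. Their hepatopancreas means ran from 108 to 442 TPM. Measured against a floor of 3 counts over the P. fallax group (0.0923 CPM), their hepatopancreas mean CPM was at least 201- to 1275-fold higher. This CPM was scaled by library totals, without TMM, and the comparison crosses species as well as tissues. The 8 were picked for being at 0 and their hepatopancreas level was used by the rule, so the bounds are description only. The highest of these bounds belonged to the most variable member, maker-scaffold13976-snap-gene-2.3, and rested on hepatopancreas animal 2: without that animal it was at least 362-fold higher. Over the 8 members the bounds ran from 151- to 907-fold without hepatopancreas animal 2. Some of the 8, the member with the lowest bound among them, had hepatopancreas counts that were not whole, so their levels are less certain. Members at 0 in all 3 P. fallax libraries were found among the lower hepatopancreas levels, with 6 at 100 to 200 TPM, 2 at 200 to 500 TPM and 0 at 500 to 1000 TPM.

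Above 1% of the hepatopancreas mean in P. fallax muscle were 18 members, or 12 without animal 3, and 6 were above 1% in each P. fallax animal. The highest P. fallax mean belonged to maker-scaffold77500-snap-gene-0.7, with 2.22, 15.5 and 53.3 TPM in animals 1, 3 and 4 (23.7 ± 26.5 TPM, SD, n = 3). In animal 4 this gene alone made up 27.3% of the members' summed level. In P. virginalis muscle it had 4.36, 2.42 and 1.93 TPM, so the species overlapped, and in hepatopancreas 464, 779 and 789 TPM. The next, maker-scaffold74511-snap-gene-0.3, had 13.4, 28.6 and 17.9 TPM in P. fallax muscle (19.95 ± 7.83 TPM, SD, n = 3) and 0.89, 0.55 and 0.52 TPM in P. virginalis muscle. All 3 P. fallax animals were above all 3 P. virginalis animals. Its hepatopancreas levels were 167, 147 and 183 TPM, so P. fallax muscle stood at 12.1% of the hepatopancreas mean and P. virginalis muscle at 0.395%.

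**Figure D4:**
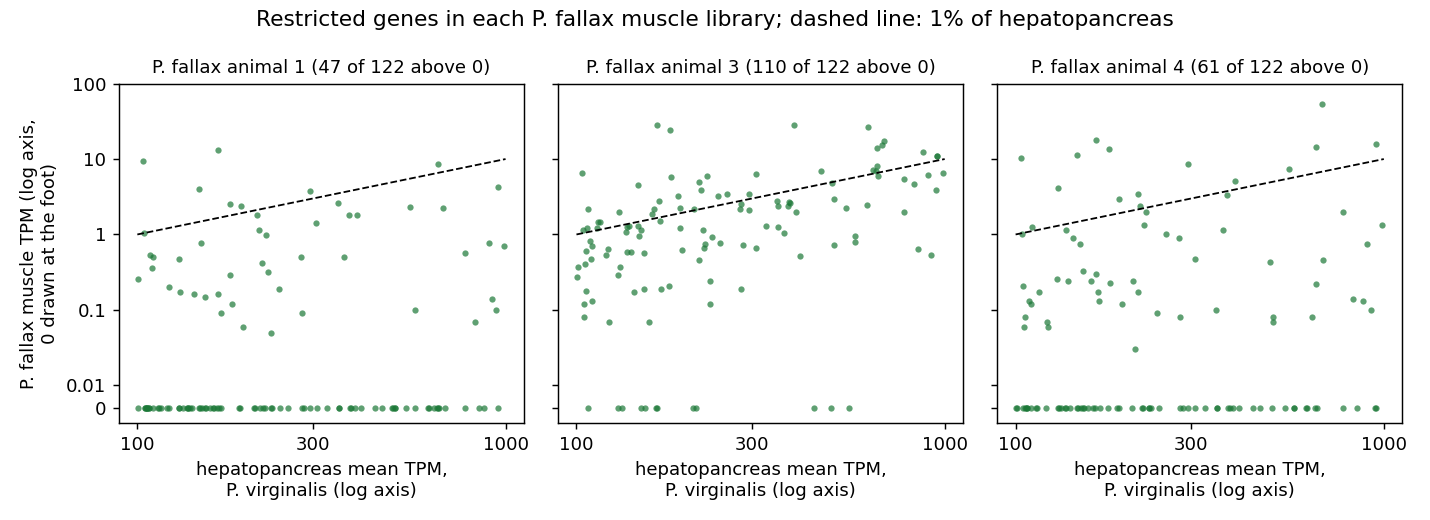
TPM of each member in P. fallax muscle against its mean TPM in P. virginalis hepatopancreas, on log axes with genes at 0 drawn at the foot, in 1 panel per P. fallax animal; the dashed line marks 1% of the hepatopancreas mean. Animal 3 has 110 members above 0 and 37 above the line, animal 1 has 47 and 8, and animal 4 has 61 and 15.

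The test between species in muscle reached few members. It used edgeR's quasi-likelihood test over the 6 muscle libraries with all genes, and positive values mean higher in P. virginalis. Of 5053 genes that passed the filter on low counts, 63 (1.25%) were called at an adjusted p below 0.05, of which 49 (0.97%) were higher and 14 (0.277%) lower in P. virginalis. When libraries were scaled by their totals without TMM, a setting chosen after the data were seen, the split was 37 higher and 35 lower, and the median of all genes moved from -0.01 to -0.59 on the log2 scale. Only 20 of the 122 members passed the filter, and 2 of these were called, both lower in P. virginalis. Because the rule held P. virginalis muscle low and a member could pass the filter through P. fallax alone, neither the count, nor the direction, nor the p-value of a single member is a result about the members, and no p is given for one. With no filter, 25 of 114 members tested were called, all lower in P. virginalis, where 307 of 12353 genes (2.49%) were called, 155 (1.25%) higher and 152 (1.23%) lower in P. virginalis. With P. fallax animal 3 also left out, 3 of 96 members were called, and 201 of 12028 genes (1.67%). With DESeq2, 4 of the 66 members given an adjusted p were called, and 121 of 7241 genes (1.67%). Not overlapping between species, with all P. fallax libraries higher, were 9 of the 114 members above 0 in a muscle library, beside a background of 7.07% of 12505 genes.

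The called members are given by their values, as a description. For maker-scaffold74511-snap-gene-0.3 the fitted log2 difference was -4.19 (SE 0.70), and its counts were 7, 7 and 2 in P. virginalis muscle and 94, 191 and 131 in P. fallax muscle. The call was lost without P. virginalis animal 6 or animal 7, where the log2 difference was -4.49 and -3.83. The call was kept without each other library, with DESeq2 and with both limma settings. The rule bears on all of these fits alike, so kept and lost calls are description only. The other called member was snap-scaffold41404-processed-gene-1.10, a model of 312 nt with 0 TPM in all 3 P. virginalis muscle libraries and 9.44, 6.46 and 10.4 TPM in P. fallax muscle (8.76 ± 2.05 TPM, SD, n = 3). The P. fallax animals lay close together in this gene. Its call was lost without any 1 of the 6 libraries. Its counts in P. fallax were not whole, so reads had been divided with other models. P. virginalis animal 7, which shared its read length with P. fallax, had 0.52 TPM of the first gene and 0 TPM of the second, and the part of read length in the values was not tested. In hepatopancreas snap-scaffold41404-processed-gene-1.10 had 125, 104 and 81.2 TPM, so P. fallax muscle stood at 8.46% of the hepatopancreas mean.

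The other named members that passed the filter were not called. The log2 difference of maker-scaffold77500-snap-gene-0.7 was -1.83 (SE 0.81). For maker-scaffold33974-snap-gene-0.1, with 0.74, 1.95 and 1.31 TPM in P. virginalis muscle and 0.71, 6.63 and 1.33 TPM in P. fallax muscle, it was -0.29 (SE 0.95), and without P. fallax animal 3 it changed sign to 1.55. The species overlapped in both genes.

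**Figure D5:**
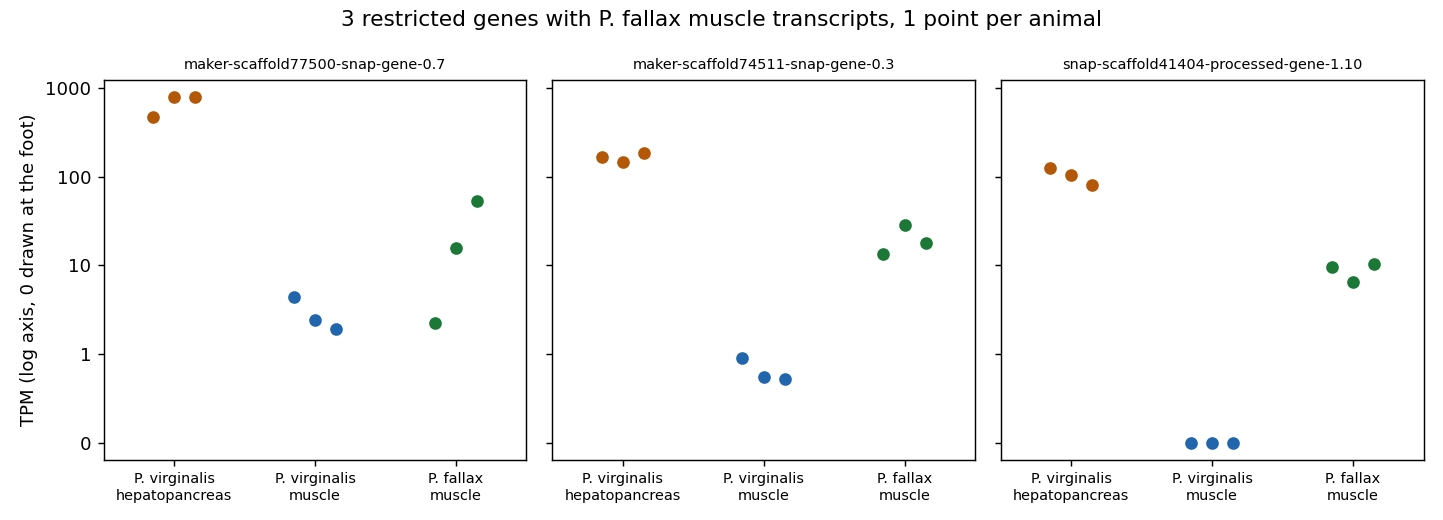
TPM of 3 members in each library on a log axis, with 1 point per animal and values of 0 drawn at the foot, for P. virginalis hepatopancreas (brown), P. virginalis muscle (blue) and P. fallax muscle (green). The species overlap in muscle for maker-scaffold77500-snap-gene-0.7 and do not for maker-scaffold74511-snap-gene-0.3 and snap-scaffold41404-processed-gene-1.10.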

How the data were processed

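Total RNA from Trizol extractions was treated with DNase and made into TruSeq RNA v2 libraries. The submitters' processing notes name HISAT2 2.0.4 and RSEM 1.2.30; for annotation release, trimming and strand setting, nothing was given in the sources used here. The authors deposited, for each library and gene model, the RSEM expected count, the TPM and a posterior mean TPM. Columns of the authors' posterior mean TPM served as an alternative.

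Membership, summed levels and percentages used TPM means as deposited. P. fallax reads were assigned to P. virginalis models, so divergent or missing sequence could lower P. fallax values. Species were compared in muscle on expected counts rounded to whole numbers with edgeR 4.0.16 (R 4.3.3; filterByExpr, TMM, quasi-likelihood test, Benjamini-Hochberg adjustment over all genes tested, threshold 0.05), after tests on simulated data. Alternatives used DESeq2 1.42.0, limma 3.58.1 on log2(TPM + 1) and log2(TPM + 0.1), other limits and left-out libraries. A count within 0.005 of an integer was taken as whole. Each library is 1 animal; P. virginalis animals share 1 clone.

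Members and lists were chosen with earlier results of these data known. Named were the 2 members with the highest and the 2 with the lowest hepatopancreas mean, the 2 with the highest P. fallax muscle mean, the members with the highest and lowest coefficient of variation, and up to 2 members called in each direction between species. The design text counts animals differently from the sample titles, which were followed.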

Additional observations from a re-analysis of the deposited data

How the results depend on the processing

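The rule gave 106 to 142 members under other TPM estimates, TMM scaling and muscle limits of 0.5% and 2%, and 119 to 139 when 1 P. virginalis animal was left out (101 to 111 shared with the 122). At most 1% of the hepatopancreas mean in P. fallax muscle were 92 to 110 members under the alternatives that kept this limit. The 92 were on TMM-scaled CPM and the 110 without P. fallax animal 3. With limits of 0.5% and 2% in its place, the counts were 90 and 116. Without P. fallax animal 3, 67 members in place of 114 were detected there. Called between species were 4 of 66 members with DESeq2 (background 1.67% of genes), 25 of 114 tested with no filter on low counts (2.49%), and 3 of 96 (1.67%) with no filter and P. fallax animal 3 left out, a setting added after the data were seen. Leaving out 1 library at a time gave 0 to 2 calls (background 0.673% to 1.55%). The rule bears on all of these counts alike, so they are description only. The count was 0 of 24 members tested in the edgeR fits without P. virginalis animal 6 or 7. In these fits 0.715% and 0.728% of genes were called. The log2 difference of maker-scaffold33974-snap-gene-0.1 reversed to 0.07 without P. virginalis animal 2 or 7, to 1.55 without P. fallax animal 3 and to 1.498 with no filter and that animal left out (range without 1 library -1.49 to 1.55); the cause was not tested. The summed P. virginalis muscle level was 71.7 TPM by posterior mean TPM, in place of 47.4 TPM. No paired analysis was possible because the species share no animals or replicate numbers, and the comparison of tissues within animals chose the genes and has no test. A muscle value of 0 allows up to 3 counts. Members above 0 were 110 in P. fallax animal 3, a library of 9109577 counts. In P. virginalis animal 6, with 18661368 counts and a muscle level held low by the rule, they were 64. The shallowest muscle library, P. virginalis animal 7 with 6001494 counts, had the fewest, 45. The part of depth in detection was not tested.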
